A study of Mus musculus with 8 samples.

Results

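The CXC and CX3C chemokines described here are Cxcl1, Cxcl2, Cxcl5, Cxcl10, Cxcl12, Cxcl16 and Cx3cl1, together with Ackr3, a receptor gene whose product takes up CXCL12. These 8 genes were chosen by symbol, with earlier results of these data known, and all 8 were found among the 45706 gene rows of the count table. Chromatin-associated RNA, which is rich in transcripts that are still being made or have not left their genes, was sequenced from primary embryonic fibroblasts of C57BL/6 mice. The cells were either wild type (WT) or labelled crel-/-rela-/- and called KO here, and the latter lack cRel and RelA, the NF-kB subunits encoded by Rel and Rela. Both kinds of cell were kept overnight in low serum and then received tumour necrosis factor (TNF) at 10 ng/ml for 15, 45 or 60 min, or were taken at 0 min as controls. There was 1 library per genotype and time, 8 in all, with no untreated library at the later times, so an effect of TNF cannot be told apart from an effect of elapsed time. The labels do not say whether the libraries came from separate cultures or embryos, or which part of each allele was removed.

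Chemokines are small secreted or membrane-bound proteins that bind receptors on leukocytes and steer their migration, and CXC and CX3C name the spacing of conserved cysteines near the start of the protein. CXCL1, CXCL2 and CXCL5 act on CXCR2 and draw neutrophils, CXCL10 acts on CXCR3 and draws activated T cells, and CXCL16 and CX3CL1 are made as transmembrane proteins that can be shed, with CXCR6 and CX3CR1 as receptors. CXCL12 is a constitutive chemokine of stromal cells that acts on CXCR4, and ACKR3 binds it without G protein signalling and clears it. In fibroblasts, TNF activates NF-kB, and dimers that hold RelA or cRel bind kappaB sites near inflammatory genes such as these.

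The sequences before the start of 4 of these genes are shown, those of the 3 members that hold the kappaB consensus (Cxcl1, Cxcl2 and Cxcl10) and, beside them, that of Cxcl12, which does not hold it. The windows of Cx3cl1 and Ackr3, which are not printed, hold no match to either kappaB pattern searched, and of these 2 Cx3cl1 rose late in WT and Ackr3 was not called. The Cx3cl1 window (chr8:94771930-94772179, plus strand) runs past the start of the gene in the deposited table, 94772009. It thus covers bases within the gene, and fewer bases before that start were searched. All windows are RefSeq promoter windows on GRCm38.p6, written 5′ to 3′ on the strand of the gene, and positions are counted backwards from the RefSeq start. Capitals mark matches to the kappaB consensus in Cxcl1, Cxcl2 and Cxcl10, and in Cxcl10 also an interferon response element core (GAAA, any 2 bases, GAAA) nearest the 5′ end and a TGANTCA match nearest the 3′ end. Bases at the 3′ end that lie in an annotated exon were left off, 4 in Cxcl1 and 28 in Cxcl2. The windows are chr5:90890995-90891240 (plus strand), chr5:90903649-90903870 (plus), chr5:92348890-92349139 (minus) and chr6:117168285-117168534 (plus).
Cxcl1: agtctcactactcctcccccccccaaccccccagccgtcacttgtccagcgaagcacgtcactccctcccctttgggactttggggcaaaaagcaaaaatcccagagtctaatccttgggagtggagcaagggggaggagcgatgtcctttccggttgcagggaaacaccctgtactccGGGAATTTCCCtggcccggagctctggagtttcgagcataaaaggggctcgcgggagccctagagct
Cxcl2: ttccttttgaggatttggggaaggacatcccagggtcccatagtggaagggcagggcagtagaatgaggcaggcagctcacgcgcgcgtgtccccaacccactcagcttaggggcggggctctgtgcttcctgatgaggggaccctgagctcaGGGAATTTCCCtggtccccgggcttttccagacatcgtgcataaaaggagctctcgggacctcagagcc
Cxcl10: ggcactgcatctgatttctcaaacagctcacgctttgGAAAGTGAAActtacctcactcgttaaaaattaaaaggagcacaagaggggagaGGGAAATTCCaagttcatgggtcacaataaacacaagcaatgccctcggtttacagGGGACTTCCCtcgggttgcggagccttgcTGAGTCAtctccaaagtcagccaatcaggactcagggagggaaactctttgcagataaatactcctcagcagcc
Cxcl12: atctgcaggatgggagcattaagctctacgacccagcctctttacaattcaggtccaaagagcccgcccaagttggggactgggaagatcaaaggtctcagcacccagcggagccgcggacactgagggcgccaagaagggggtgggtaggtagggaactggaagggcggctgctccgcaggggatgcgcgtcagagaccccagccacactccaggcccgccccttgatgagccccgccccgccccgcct

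In Cxcl1 the kappaB matches on the plus and minus strands overlapped and covered bases -71 to -61, and in Cxcl2 they covered -97 to -87 with the same letters. Cxcl10 had 2 separate kappaB matches, at -159 to -150 and -103 to -94. Of the 6 members with a RefSeq window, these 3 held the kappaB consensus, against 3.90% of 32851 windows of the same 250 bases searched on both strands. The looser kappaB pattern (GGG, any 5 bases, CC) was in 4 of the 6, Cxcl12 included, and in 45.8% of all windows. The interferon response element core was in Cxcl10 alone of the 6 (2.98% of all windows), as was the AP-1 pattern TGANTCA (6.75%). TATAAA was in Cx3cl1 and Ackr3 (12.4% of all windows). The 2 kappaB patterns overlap each other, and a match describes these letters and not a bound site.

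**Figure D1:**
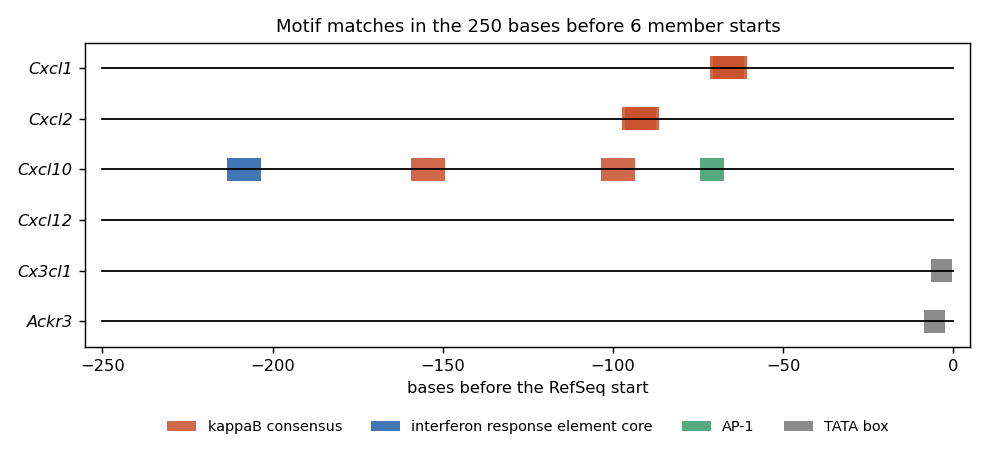
Positions of motif matches in the 250 bases before the RefSeq start of the 6 members with a window (horizontal axis, bases before the start; 1 line per gene; coloured boxes, matches on either strand). The kappaB consensus is matched in Cxcl1, Cxcl2 and Cxcl10, and the boxes of Cxcl1 and Cxcl2 are darker where matches on both strands overlap.

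Cxcl5, Cxcl1 and Cxcl2 lie on the plus strand of chromosome 5 within 147 kb, and Cxcl1 (chr5:90891241-90893115) ends 10.8 kb before Cxcl2 (chr5:90903871-90905938), by the mm10 coordinates of the deposited table. Between Cxcl5 (chr5:90759360-90761624) and Cxcl1 lie Ppbp, Pf4, Cxcl3 and Cxcl15. Of these 4, Cxcl15 had 1 to 15 counts per library and the other 3 had at most 5. Cxcl10 (chr5:92346638-92348889, minus strand) sits between Cxcl9 and Cxcl11. Cxcl12 (chr6:117168535-117181367), Cxcl16 (chr11:70453983-70459984), Cx3cl1 (chr8:94772009-94782423) and Ackr3 (chr1:90203980-90216751) lie on other chromosomes. The counted intervals span the whole body of Cxcl1, Cxcl2 and Cxcl10, introns included, because transcripts that retain introns are annotated there. For Cxcl5 they span 82.3% of the body, for Cxcl12 63.7%, for Cxcl16 50.3%, for Cx3cl1 35.6% and for Ackr3 26.2%, so the members differ in how much intronic RNA their counts hold.

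Libraries held 12359817 to 15607331 counts, of which 58.9% to 70.6% fell on 3 genes (Gm26917, Gm42418 and Malat1). The targeted genes gave reads in both genotypes. Over the 4 times, WT counts of Rela were 324, 406, 704 and 589, and its KO counts were 306, 241, 291 and 324. WT counts of Rel were 151, 173, 805 and 506, and its KO counts were 478, 308, 538 and 633. These counts cover whole genes, so they check nothing about the deletion. Of 10 fibroblast markers all 10 were detected in both genotypes, with summed levels of 9020 to 11530 CPM in WT and 9897 to 13299 CPM in KO. CPM are counts brought to a common library total, computed here with each library's total scaled by the trimmed mean of M-values (TMM). The fibroblast sums were mostly Col1a1, Col1a2, Col3a1 and Fn1. Of the 10, edgeR called 1 lower in KO at 45 and 60 min together and none higher, against 7.88% and 3.92% of all tested genes. This was Pdgfra, with a log2 difference of -0.74 ± 0.18 (standard error; edgeR adjusted p = 0.0160). Summed markers of other cells did differ. The 10 leukocyte markers summed to 49.5 to 68.1 CPM in WT and 6.11 to 8.38 CPM in KO, with 7 of them reaching 10 counts in some WT library and 2 in some KO library. Among these was Ptprc, the pan-leukocyte phosphatase CD45, with WT counts of 188, 168, 156 and 144 and KO counts of 1, 2, 0 and 1, and the T cell gene Cd3e was at 0 in all 8. Not all markers on the list were lower in KO. WT counts of Cd68 were 131, 119, 88 and 75, and its KO counts were 93, 77, 67 and 78. Cd68 alone gave most of the KO sum and was not called between genotypes at 45 and 60 min together (-0.07 ± 0.21, edgeR adjusted p = 0.888). The 6 cartilage markers summed to 398 CPM in the KO 0 min library, against 20.2 to 49.9 CPM in the other KO libraries and 7.26 to 11.5 CPM in WT. The 6 epithelial markers summed to 7.29 CPM in that KO 0 min library and to at most 1.05 CPM elsewhere. The 8 endothelial markers summed to 5.20 to 7.95 CPM in WT and 9.50 to 14.7 CPM in KO, with Cldn5 at 0 in all 8. That list was mixed, with Kdr and Tek higher in KO at each time and Vwf lower. WT counts of Vwf were 20, 24, 37 and 38, and its KO counts were 7, 3, 0 and 2. The part of these other cells in the genotype results below was not tested, and in bulk RNA fewer cells of a type cannot be told apart from less RNA per cell.

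The neutrophil chemokines Cxcl1 and Cxcl2 were already high at 15 min in WT, while in KO Cxcl1 was above its 0 min level by a smaller ratio and Cxcl2 had 3 counts at that time. Cxcl1, a main CXCR2 ligand, had 49, 577, 567 and 422 counts in WT at 0, 15, 45 and 60 min (3.26, 41.5, 40.6 and 30.5 CPM). The KO libraries held 67, 102, 22 and 28 counts (4.0, 9.0, 1.75 and 2.10 CPM). All 3 WT libraries after TNF lay above all 4 KO libraries, while the 0 min libraries were close. The WT ratio of 15 to 0 min was 12.7 (95% exact Clopper-Pearson interval 9.49 to 17.4). In KO that ratio was 2.25 (1.64 to 3.11), and from 15 to 45 min Cxcl1 went down to 0.194 of its level (0.117 to 0.310). These intervals compare libraries and cover counting error only, with no replicate check. For the late response, the mean of the 45 and 60 min libraries against 0 min, Cxcl1 rose in WT by a log2 fold change of 3.44 ± 0.28 (standard error; edgeR adjusted p = 1.81e-05). In KO the same contrast gave -1.05 ± 0.31, short of the threshold of 0.05 (edgeR adjusted p = 0.110), and without the WT 60 min library it passed at -1.06. That fit leaves out no KO library, so the KO counts were the same, and the standard error in that fit was not smaller. What brought it past the threshold was not tested. The WT response exceeded the KO response by 4.49 ± 0.42 on the log2 scale (edgeR adjusted p = 1.87e-04). All of these fits take 45 and 60 min as stand-ins for replicates and assume that the lone 0 and 15 min libraries vary like them.

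Cxcl2, which shares the CXCR2 receptor with Cxcl1, was almost absent before TNF and in KO. It had 3, 206, 347 and 220 counts in WT (0.200, 14.8, 24.8 and 15.9 CPM). In KO it had 0, 3, 1 and 1 counts. The 0 in the KO 0 min library allows up to 3 counts, or 0.179 CPM, and the 3-count limit of the other libraries was 0.200 to 0.265 CPM, so every KO library lay at or below its limit. The WT ratio of 15 to 0 min was 74.1, with a wide interval of 25.0 to 362 that reflects the 3 counts at 0 min. The late rise in WT was 6.61 ± 0.52 on the log2 scale (edgeR adjusted p = 1.63e-05). No KO response and no difference between responses can be given, since the KO baseline is 0. At 45 and 60 min together Cxcl2 was lower in KO than in WT by a log2 difference of -7.89 ± 0.46 (edgeR adjusted p = 3.44e-07). Of the 50-base windows in its transcripts, 5.84% also occur in Cxcl3, its neighbour in the same cluster, but Cxcl3 had at most 3 counts in any library.

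Cxcl5, another CXCR2 ligand and the farthest of the 3 in the cluster, was the only member called lower late in KO by edgeR. It had 110, 230, 171 and 243 counts in WT (7.33, 16.5, 12.2 and 17.6 CPM). The KO counts were 103, 95, 23 and 36 (6.16, 8.38, 1.83 and 2.70 CPM). At 0 min the genotypes did not differ beyond counting error, where the KO to WT ratio was 0.840 (0.636 to 1.11), and did not overlap from 15 min on. The 15 to 0 min ratio in WT was 2.26 (1.79 to 2.86), and in KO 1.36 (1.02 to 1.82). From 15 to 45 min the KO level went to 0.218 (0.132 to 0.347), a drop like that of Cxcl1 in the same libraries. The late response in WT was 1.02 ± 0.28 and missed the threshold (edgeR adjusted p = 0.0547). It passed without the WT 45 min library (1.24) or either of the late KO libraries (1.02 each). The late KO libraries do not enter the WT response, so leaving them out changed the estimate of spread and not the WT counts. In KO Cxcl5 fell by 1.43 ± 0.32 on the log2 scale (edgeR adjusted p = 0.0466), a call that was lost without the KO 45 min library (-1.19) or the KO 60 min library (-1.75). It was also lost with DESeq2 (-1.44), limma-voom (-1.45), no filter (-1.42) and a 2-fold threshold. The difference between responses was 2.46 ± 0.43 (edgeR adjusted p = 0.0263). That call was lost without the KO 45 min library (2.21), with limma-voom (2.44), with no filter (2.45), with a 2-fold threshold, and with 15 min (1.73) or 0 and 15 min together (1.98) as the baseline, and its adjusted p ran from 9.35e-05 to 0.294 over all alternatives.

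**Figure D2:**
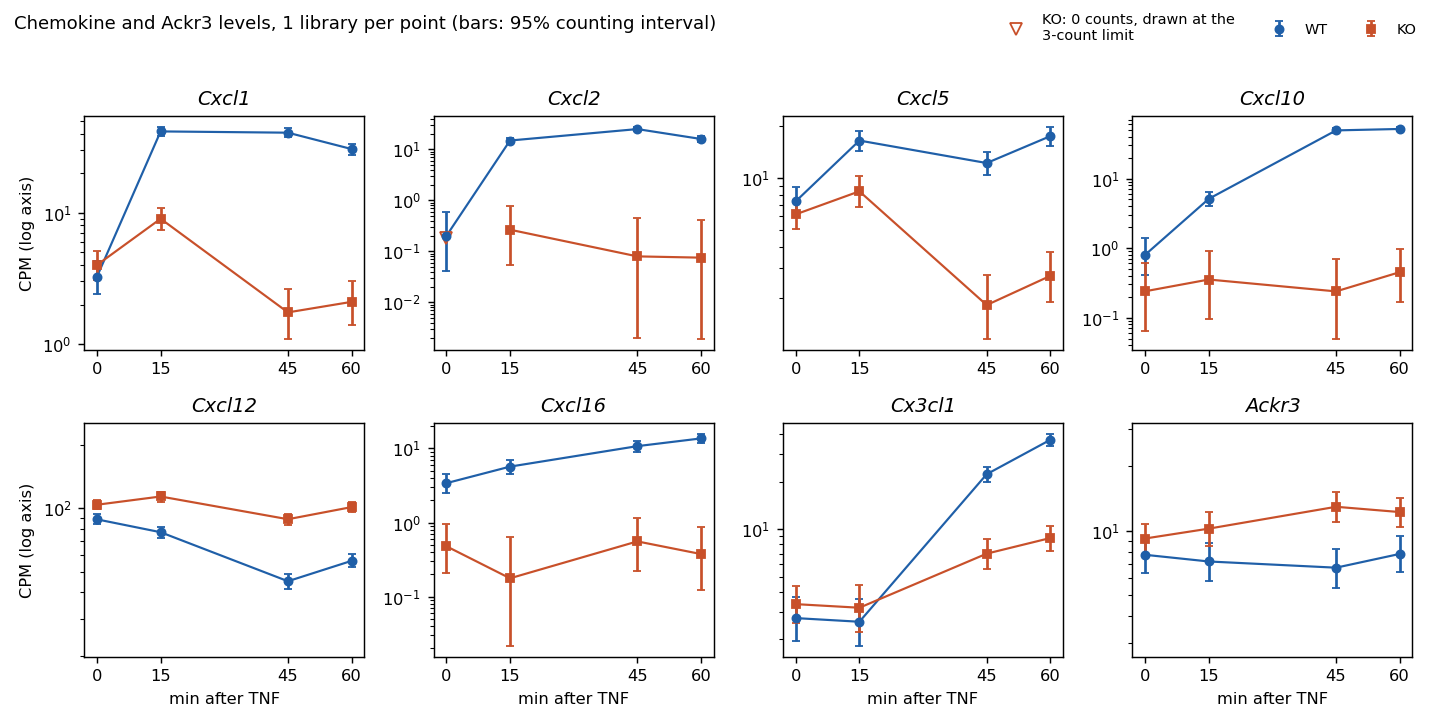
Level of each member (vertical log axis, CPM) against minutes after TNF, with circles for WT, squares for KO and 95% exact Poisson intervals for counting error as bars. The open triangle under the WT point of Cxcl2 at 0 min is the KO library with 0 counts, drawn at 0.179 CPM. For 6 chemokines the WT points at 45 and 60 min lie above the KO points, and for Cxcl12 and Ackr3 they lie below.

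Cxcl10, the interferon-inducible ligand of CXCR3, went from near its detection limit to the highest level per length of the 8 in WT at 60 min, with a level close to that of Cxcl1 at 45 min. Its counts were 12, 71, 688 and 715 in WT (0.799, 5.11, 49.2 and 51.6 CPM). In KO they were 4, 4, 3 and 6 (0.239, 0.353, 0.238 and 0.45 CPM). Every KO library was below every WT library, and no KO library was more than 2 times its 3-count limit. The WT ratio was 6.39 (3.44 to 12.9) at 15 min, 61.6 (35.0 to 120) at 45 min and 64.6 (36.8 to 126) at 60 min, all to 0 min. The late rise in WT was 5.96 ± 0.32 on the log2 scale (edgeR adjusted p = 1.49e-06), and in KO the estimate was 0.52 ± 0.72 (edgeR adjusted p = 0.782). The difference of 5.44 ± 1.06 passed the threshold (edgeR adjusted p = 0.0473). It did not without the KO 45 min library (5.08) or the KO 60 min library (5.97). Of the 50-base windows of Cxcl10, 3.59% are shared with Art3, which overlaps it on the other strand, and Art3 had 0 counts in every library. Cxcl9, the neighbouring CXCR3 ligand, with WT counts of 2, 5, 43 and 38 and KO counts of 1, 0, 0 and 0, was also called higher late in WT (edgeR adjusted p = 0.00419), though not by DESeq2. The other neighbour, Cxcl11, had at most 8 counts.

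The membrane-bound chemokines Cxcl16 and Cx3cl1 both rose late in WT and were highest there at 60 min, from different KO levels. Cxcl16, which as a membrane protein also takes up oxidised lipoprotein, had 51, 79, 150 and 189 counts in WT (3.40, 5.68, 10.7 and 13.7 CPM). The KO counts of Cxcl16 were 8, 2, 7 and 5 (0.478, 0.176, 0.556 and 0.375 CPM). It was the only member already lower in KO at 0 min by the size rule given below, with a WT to KO ratio of 7.10 (3.35 to 17.3). Cxcl10 had a ratio of 3.34 (1.01 to 14.2) at 0 min and missed that rule by its low counts, 12 in WT and 4 in KO. The late rise of Cxcl16 in WT was 1.84 ± 0.30 (edgeR adjusted p = 0.00352). The KO estimate was -0.04 ± 0.64 from these few counts (edgeR adjusted p = 0.983), and the difference of 1.89 ± 0.74 did not pass (edgeR adjusted p = 0.505). Late KO and WT levels differed by -4.69 ± 0.33 (edgeR adjusted p = 2.05e-06). The genotype gap in Cxcl16 thus stood at 0 min, where the leukocyte markers also differed (68.1 CPM in WT and 7.59 CPM in KO), and their part in it was not tested. Cxcl16 shares 16.9% of its 50-base windows with Zmynd15, which overlaps it on the other strand. WT counts of Zmynd15 were 26, 36, 61 and 64, and its KO counts were 9, 13, 9 and 7. The sources used here do not give the strand setting of the counting, so reads of these 2 genes cannot be told apart where they overlap.

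Cx3cl1, the ligand known as fractalkine, was within counting error of its 0 min level at 15 min and, of the 7 members with a KO ratio, was the only one above 2-fold over 0 min at 45 and 60 min in both genotypes. It had 41, 36, 311 and 509 counts in WT (2.73, 2.59, 22.3 and 36.8 CPM). In KO it had 56, 36, 88 and 117 counts (3.35, 3.18, 6.99 and 8.78 CPM). The intervals of the genotypes overlapped at 0 and 15 min and were apart at 45 and 60 min. The ratio of 15 to 0 min was 0.948 (0.589 to 1.52) in WT and 0.949 (0.606 to 1.47) in KO. In KO the ratio to 0 min was 2.09 (1.48 to 2.97) at 45 min and 2.62 (1.89 to 3.67) at 60 min. The late rise in WT was 3.43 ± 0.36 (edgeR adjusted p = 1.48e-04). In KO the estimate was 1.24 ± 0.35 and missed the threshold (edgeR adjusted p = 0.0944), but it passed without the WT 45 min library (1.24) or the WT 60 min library (1.23). Neither fit leaves out a KO library, so the KO counts were the same, while the estimate of spread and the adjustment over all genes changed. The difference was 2.19 ± 0.51 (edgeR adjusted p = 0.100) and likewise passed without the WT 45 min library (2.49) or the WT 60 min library (1.79). Between 45 and 60 min Cx3cl1 still increased in WT, by a ratio of 1.65 (1.43 to 1.91), and this enters its estimate of spread.

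Cxcl12 and its scavenger Ackr3 were not called higher in WT after TNF, and both had higher late levels in KO. Cxcl12, the constitutive stromal ligand of CXCR4, had 1331, 1071, 630 and 780 counts in WT (88.7, 77.0, 45.1 and 56.3 CPM). In KO it had 1740, 1290, 1118 and 1351 counts (104, 114, 88.8 and 101 CPM). The lowest KO level was about equal to the highest WT level, and KO was above WT at each time. In WT the ratio to 0 min was 0.869 (0.801 to 0.942) at 15 min, 0.509 (0.462 to 0.560) at 45 min and 0.635 (0.581 to 0.695) at 60 min. Cxcl12 fell in the late WT response by 0.81 ± 0.18 on the log2 scale (edgeR adjusted p = 0.0209), a call that was lost without the WT 45 min library (-0.67). In KO the estimate was -0.13 ± 0.18 (edgeR adjusted p = 0.758). The difference between the responses, -0.68 ± 0.26, did not pass (edgeR adjusted p = 0.489), so a fall particular to WT was not shown. Late levels were higher in KO by 0.91 ± 0.15 (edgeR adjusted p = 0.00172).

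Ackr3 had 116, 100, 94 and 108 counts in WT (7.73, 7.19, 6.73 and 7.80 CPM). In KO it had 154, 116, 163 and 163 counts (9.21, 10.2, 12.9 and 12.2 CPM). All 4 KO libraries were above all 4 WT libraries, and within WT the levels spread least of the 8 genes. The late response was -0.09 ± 0.23 in WT (edgeR adjusted p = 0.885) and 0.45 ± 0.22 in KO (edgeR adjusted p = 0.317). The late level was higher in KO by 0.79 ± 0.19 (edgeR adjusted p = 0.0141). Leaving out WT at 45 min (0.70), KO at 45 min (0.75) or KO at 60 min (0.83) ended that call, as did DESeq2 (0.79) and total counts (0.61).

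Counted over the 8 members, the late response in WT was higher for 5 (Cxcl1, Cxcl2, Cxcl10, Cxcl16 and Cx3cl1) and lower for 1 (Cxcl12). Among all 15049 tested genes 4.17% were called higher and 1.31% lower (edgeR's quasi-likelihood test at a Benjamini-Hochberg adjusted p below 0.05). The median log2 fold change was 2.64 over the members and -0.00 over all genes. In KO edgeR called no member higher (1 at an unadjusted p under 0.05) and 1 lower (Cxcl5), against 1.32% and 0.518% of all tested genes. The median of the 7 members with a KO estimate was -0.04. DESeq2 and limma-voom called no member in KO in either direction. The KO 0 min library, the baseline of every KO response, held cartilage markers at 398 CPM, and the part of this in the KO values was not tested. The difference of responses was larger in WT for 3 members (Cxcl1, Cxcl5 and Cxcl10), against 0.492% of all genes, and larger in KO for none, against 0.00664% (edgeR; 1 member at an unadjusted p under 0.05, and 0 by DESeq2 and limma-voom). With 15 min as the baseline, or 0 and 15 min together, none of these 3 differences was called, and with no filter or a 2-fold threshold Cxcl1 alone of the 3 was. The WT response enters both the first and the third of these counts, so they are not independent.

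**Figure D3:**
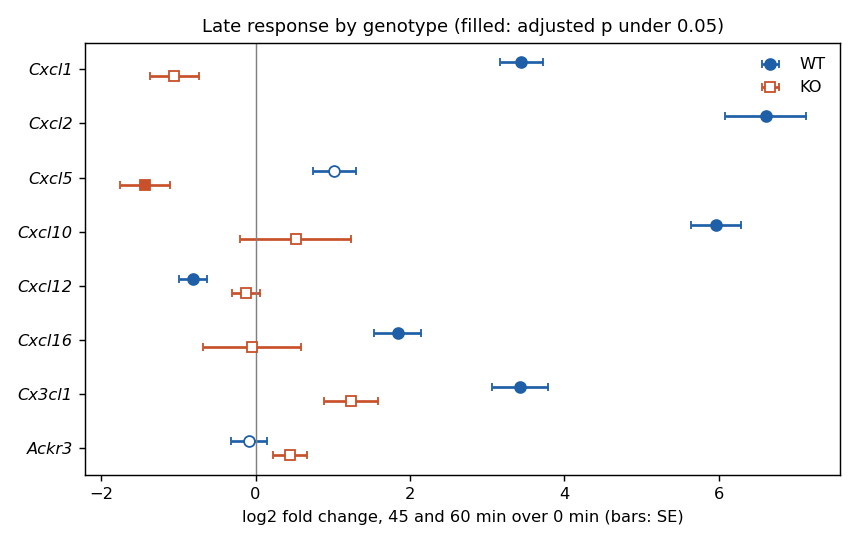
Late response of each member, as the log2 fold change of the mean of 45 and 60 min over 0 min (horizontal axis; bars, standard error), with circles for WT and squares for KO. Filled symbols passed an adjusted p of 0.05, and Cxcl2 has no KO symbol because its KO 0 min count was 0. WT symbols reach 6.61 (Cxcl2), while the KO symbols lie between -1.43 (Cxcl5) and 1.24 (Cx3cl1).

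Single libraries were not tested against each other, and members at 0 or 15 min were described by size, as at least 2-fold apart with an interval that excludes 1 and at least 20 counts in the higher library. At 15 min over 0 min in WT, 4 members were higher (Cxcl1, Cxcl2, Cxcl5 and Cxcl10) and none lower, where 0.857% and 1.19% of all tested genes were. In KO only Cxcl1 was higher and none was lower, where 0.585% and 1.15% of all genes were. With total counts in place of TMM, Cxcl5 in WT (log2 ratio 0.84) and Cxcl1 in KO (0.82) fell short of 2-fold. Between genotypes at 0 min, Cxcl16 was lower in KO and no member was higher, against 3.37% and 1.91% of all genes. At 15 min Cxcl1, Cxcl2, Cxcl10 and Cxcl16 were lower in KO, with WT to KO ratios of 4.61 (3.73 to 5.75), 56.0 (18.9 to 274), 14.5 (5.41 to 54.6) and 32.2 (8.62 to 271) in that order. No member was higher then, and the shares of all genes were 3.44% lower and 1.83% higher. Cxcl2, Cxcl10 and Cxcl16 are among the tested genes through their WT counts alone, which favours a lower level in KO. Cxcl5 stood just outside the rule at 15 min, with a WT to KO ratio of 1.97 (1.55 to 2.53).

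At 45 and 60 min together, 6 members were called lower in KO than in WT and 2 higher, against 7.88% and 3.92% of all tested genes, and the median log2 difference was -3.45 over the members and 0.01 over all genes. Cxcl2, Cxcl10 and Cxcl16 had fewer than 10 counts in every KO library, so they passed the count filter through WT libraries alone. Their lower calls in KO were thus favoured by the filter and are descriptive. From the summed counts of these times, the WT to KO ratio was 264 (72.8 to 2187) for Cxcl2 and 145 (76.3 to 318) for Cxcl10. It was 26.3 (14.9 to 51.5) for Cxcl16 and 18.4 (13.9 to 25.0) for Cxcl1. The smallest gaps among the lower members were in Cxcl5, at 6.54 (4.97 to 8.74), and Cx3cl1, at 3.73 (3.19 to 4.37). By the fit, Cxcl10 was at -7.15 ± 0.27 (edgeR adjusted p = 1.43e-08), Cxcl1 at -4.20 ± 0.23 (edgeR adjusted p = 1.82e-07), Cxcl5 at -2.71 ± 0.26 (edgeR adjusted p = 2.98e-05) and Cx3cl1 at -1.90 ± 0.24 (edgeR adjusted p = 2.47e-04). All 6 lower calls held without any 1 library. With all 4 times and time as a block Cx3cl1 missed the threshold (-1.14, edgeR adjusted p = 0.0521), in a fit that includes the 0 and 15 min libraries. The leukocyte markers other than Cd68 moved with genotype in the same direction (6 of 7 tested lower in KO late, each in the test through its WT counts). Their part in these 6 differences was not tested.

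**Figure D4:**
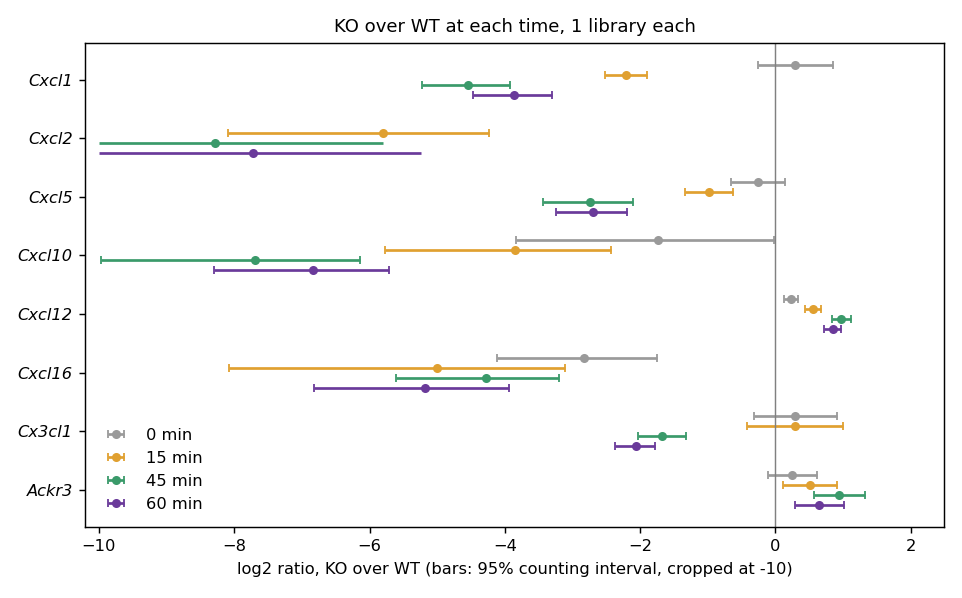
Log2 ratio of KO over WT for each member at 0, 15, 45 and 60 min (horizontal axis; 1 library each; bars, 95% exact interval for counting error, cropped at -10). Cxcl2 has no 0 min point because of its 0 count. For Cxcl1, Cxcl5 and Cx3cl1 the 0 min interval spans 0, and Cxcl10 and Cxcl16 are left of 0 at all 4 times.

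The WT time courses differed in how near each gene was to its highest level at 15 min. At that time Cxcl1 was at 100% of its highest WT level, Cxcl5 at 94.2% and Cxcl2 at 59.7%, whereas Cxcl16 was at 41.6%, Cxcl10 at 9.89% and Cx3cl1 at 7.04%. The mean of 45 and 60 min was above 15 min for Cx3cl1 (3.51 ± 0.37, edgeR adjusted p = 2.81e-04) and Cxcl10 (3.30 ± 0.24, edgeR adjusted p = 2.06e-05), 2 of 8 members against 3.24% of all tested genes. No member was called lower, against 0.864% (edgeR; 1 at an unadjusted p under 0.05, and 0 by DESeq2 and limma-voom). Cxcl16 stood just short at 1.10 ± 0.28 (edgeR adjusted p = 0.0515), and it passed when the WT library of 0 or 45 min, or the KO library of 0 or 15 min, was left out (1.10 to 1.27). Of these only the WT 45 min library enters this contrast. Cxcl12 was at -0.60 ± 0.18 (edgeR adjusted p = 0.0932) and passed without the WT 60 min library (-0.77). Cxcl2, Cxcl1 and Cxcl5 were at 0.46 ± 0.27, -0.22 ± 0.21 and -0.15 ± 0.26, with edgeR adjusted p of 0.410, 0.624 and 0.816. From 45 to 60 min the WT ratio was below 1 for Cxcl1, at 0.751 (0.660 to 0.853), and Cxcl2, at 0.640 (0.538 to 0.760). It was above 1 for Cxcl5, at 1.43 (1.17 to 1.75), and for Cxcl12, at 1.25 (1.123 to 1.39), and near 1 for Cxcl10, at 1.05 (0.943 to 1.17).

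**Figure D5:**
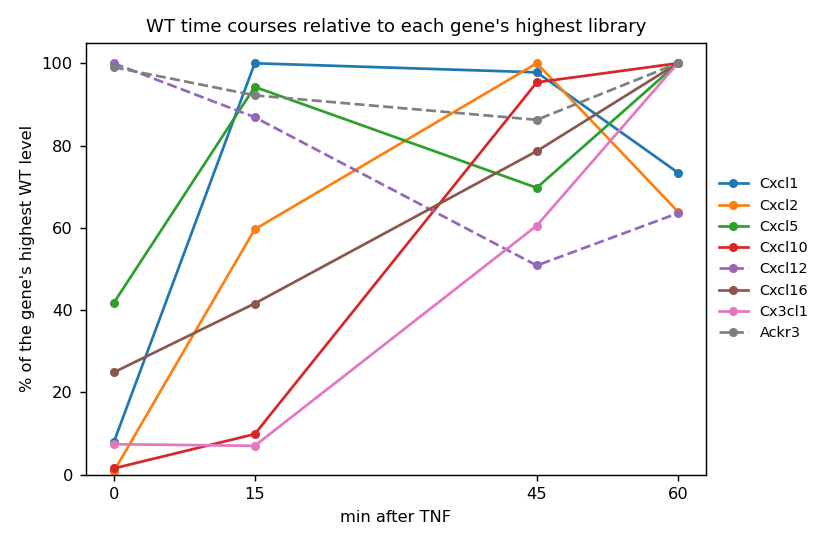
WT level of each member as a percentage of its own highest WT library (vertical axis) against minutes after TNF, 1 library per point. Cxcl1 and Cxcl5 are near their highest level at 15 min, Cxcl10 and Cx3cl1 are below 10% of theirs at that time, and the dashed lines of Cxcl12 and Ackr3 start near 100%.

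Compared per length, as CPM per kb of counted exon, the order of the members turned over in WT and stayed led by Cxcl12 in KO. At 0 min in WT Cxcl12 led with 10.8 CPM per kb, followed by Cxcl5 at 3.93, Ackr3 at 2.31 and Cxcl1 at 1.74. Cxcl2 was last at 0.0966 CPM per kb. At 60 min in WT the order was Cxcl10 at 22.9 CPM per kb, Cxcl1 at 16.3, Cx3cl1 at 9.91, Cxcl5 at 9.42, Cxcl2 at 7.68, Cxcl12 at 6.89, Cxcl16 at 4.52 and Ackr3 at 2.33. Neighbours in the middle of that order, such as Cx3cl1 and Cxcl5, are close, and each rests on 1 library. In KO Cxcl12 ranked highest at every time, with 10.9 to 13.9 CPM per kb. Since the share of intron counted differs between genes, these orders compare counted RNA and not transcription rates.

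Among the other ligands of the families, 3 of 9 passed the count filter, and in the late WT response Cxcl9 was higher (4.17% of all tested genes were) while Cxcl14 and Cxcl15 were not called. In the late KO response none of the 3 was called by edgeR, DESeq2 or limma-voom, or had an unadjusted p under 0.05. Between genotypes late, Cxcl9 was lower in KO and Cxcl14 higher, the latter not by DESeq2 (7.88% and 3.92% of all tested genes were lower and higher). Cxcl9 passed the count filter through WT libraries alone, which favours a lower call in KO. Of 10 chemokine receptor genes 2 were tested, and neither was called late within a genotype by edgeR, DESeq2 or limma-voom (1 lower in WT and 0 in KO at an unadjusted p under 0.05). WT counts of Cxcr4, the receptor for CXCL12, were 23, 20, 27 and 30, and its KO counts were 3, 0, 3 and 1. Those of Cx3cr1, the receptor for CX3CL1, were 59, 29, 27 and 22, and its KO counts were 4, 1, 0 and 1. Both were lower in KO late, in the same libraries in which the summed leukocyte markers were lower, and the part of those cells was not tested. Both receptor genes passed the count filter through WT libraries alone, so a lower call in KO was favoured by the filter. Cxcr2 was at 0 in every library, Cxcr3 reached 1 count and Cxcr6 at most 3. Of 10 genes for shedding, cleavage or presentation on heparan sulphate, 9 were tested. Late in WT, Ext1, a heparan sulphate polymerase gene, and Sdc4, a syndecan gene, were higher and none was lower, against 4.17% and 1.31% of all tested genes (edgeR; 2 lower at an unadjusted p under 0.05, and 0 by DESeq2 and limma-voom). In KO none was called by these 3 tools (2 higher and 1 lower at an unadjusted p under 0.05). Between genotypes late, 2 of the 9 were lower in KO (Adam17 and Mmp9) and 0 higher, against 7.88% and 3.92% of all tested genes (edgeR; 1 higher at an unadjusted p under 0.05, and 0 by DESeq2 and limma-voom). Adam17, a sheddase of CX3CL1, gave 378, 333, 614 and 581 WT counts and 323, 239, 208 and 309 KO counts, and the late KO to WT difference was -1.11 ± 0.17 (edgeR adjusted p = 0.00104). Its late WT response missed the threshold (0.77 ± 0.21, edgeR adjusted p = 0.0566). Adam10 on the same list was at -0.02 ± 0.15 between genotypes late (edgeR adjusted p = 0.956).

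All 25 genes from TNF receptor to NF-kB were tested, and 12 were higher late in WT, 1 in KO (Nfkb2, which DESeq2 and limma-voom did not call) and none lower in either, where 4.17% of all tested genes were higher in WT and 1.32% in KO (0 lower at an unadjusted p under 0.05, and 0 by DESeq2 and limma-voom). The smallest p-values in WT were those of Nfkbie, Nfkbia and Tnfaip3, which encode inhibitors of NF-kB. Of 9 interferon regulatory factor, STAT and interferon genes 8 were tested, and late in WT Irf1, Ifnar1 and Ifnar2 were higher and none lower, against the same 4.17% and 1.31% (edgeR; 1 lower at an unadjusted p under 0.05, and 0 by DESeq2 and limma-voom). WT counts of Irf1, a transcription factor of the interferon response, were 224, 1162, 4053 and 3110, and its KO counts were 176, 114, 203 and 234. In KO none of the 8 was called in response by these tools (2 higher and 1 lower at an unadjusted p under 0.05), and 7 were lower in KO than in WT late, against 7.88% of all tested genes. Ifnb1 had 0 counts in every library, which allows up to 3 counts in each.

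For each member the 3 most similar genes were sought by Pearson correlation of log2 CPM over the 8 libraries, among 11107 genes. These values are a description, since the libraries share genotype and time. A time course shared with a member is what the search selects for, so it is no separate result. The nearest to Cxcl1 were Nfkbiz (r = 0.968), Camk1 and Mustn1, and those near Cxcl2 included Nfkbia (0.989) and Ccl7. Nfkbiz, which encodes the atypical inhibitor IkB-zeta, gave 793, 1507, 1510 and 1203 WT counts and 1006, 862, 544 and 501 KO counts, and so had its late KO values below 0 min, like Cxcl1. Cxcl5 was nearest to Cbx7 (0.979), Csnk1g1 and Pitpnm1, and Cxcl10 to Uvrag (0.996), Ccl20 and Trp53. Cxcl16 was nearest to Neurl3 (0.995), Lgalsl and Tlr2, and Cx3cl1 to Bcor (0.993), Nfe2l1 and Phldb1. Bcor, a corepressor gene, gave 309, 306, 769 and 1014 WT counts and 397, 285, 470 and 496 KO counts, with the same delay after 15 min as Cx3cl1. Cxcl12 was nearest to Nol12 (0.983), Rwdd3 and Bin3, and Ackr3 to Pcdhac2 (0.984), Nes and Rxrb. Within the group, r was 0.946 for Cxcl1 with Cxcl2, -0.945 for Cxcl10 with Cxcl12 and 0.186 for Cx3cl1 with Cxcl5, each over the same 8 libraries.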

How the data were processed

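Stranded libraries were made from the chromatin-associated RNA of primary fibroblasts after removal of ribosomal RNA and read as single ends, per the labels' protocols. The submitters' processing notes name cutadapt 1.12, STAR, featureCounts 1.5.0, DESeq2 and mm10. The deposited values are raw counts per gene, made by the authors, with coordinates and exon lengths, per the file headers. The sources used here do not give the strand setting, the annotation release or how reads that map to several places were handled.

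A gene was tested if 2 or more libraries had at least 10 counts for it (15049 genes, all 8 members among them). Cxcl2, Cxcl10 and Cxcl16 passed through WT libraries alone. TMM scaling gave factors from 0.818 to 1.21. The quasi-likelihood test of edgeR 4.0.16 (R 4.3.3) was fitted to 6 cell means (each genotype at 0 min, at 15 min and late, which is 45 and 60 min together) with 2 residual degrees of freedom. The 5 contrasts were adjusted over all tested genes by Benjamini-Hochberg. Standard errors were taken from the log2 fold change and its F statistic. The p-values rest on the spread between the 45 and 60 min libraries within each genotype. That spread may be technical, and it also holds any change between these 2 times. No 2 libraries were duplicates (chi-square per degree of freedom 8.43 to 56.5). Ratios of single libraries carry exact Clopper-Pearson intervals at 95%. Intervals and the 3-count limit cover counting error only. Reads copied by PCR are not independent molecules, so even the counting error may be larger than these show. The fits were tested on simulated counts.

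The members, 5 lists of related genes and 5 marker lists were chosen with earlier results of these data known. Named genes are the members, the 3 nearest genes of each member (mean of at least 20 counts, no predicted models) and members of the lists, by counts and the smallest p. Values of 1 nearest gene are not reported here. Bcor and Nfkbiz were given values, and the targeted genes, overlap partners, Cxcl9, Cxcr4, Cx3cr1, Adam10, Adam17, Irf1, Pdgfra, Cd68 and Ptprc were singled out, after values were seen. Alternatives were a test in DESeq2 1.42.0 or by limma-voom (limma 3.58.1), robust empirical Bayes, RLE or total-count scaling, no filter or a stricter filter, a 2-fold threshold, other baselines and time blocks, a 1.5-fold size rule, and leaving out each library. Leaving out a library also changes the estimate of spread in contrasts that this library does not enter. RefSeq windows (GRCm38.p6) were matched by symbol for 6 of 8 members. A planned comparison of protein sequences was not made. Figures were drawn with matplotlib 3.10.9.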

Additional observations from a re-analysis of the deposited data

Results flagged for a closer look

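For 3 members the late response differed between the genotypes by a test of the difference itself (edgeR, Benjamini-Hochberg adjusted p under 0.05 over all tested genes). The difference, WT minus KO on the log2 scale, was 4.49 for Cxcl1, 5.44 for Cxcl10 and 2.46 for Cxcl5. For Cxcl1 and Cxcl5 it joins a WT estimate above 0 with a KO estimate below 0, and Cxcl5 passed the test within KO but not within WT. For Cxcl10 the KO libraries held 3 to 6 counts each. The Cxcl5 call was lost with limma-voom and without the KO 45 min library (2.21), and the Cxcl10 call when KO at 45 min (5.08) or KO at 60 min (5.97) was left out. Both were lost with no filter and with a 2-fold threshold. All 3 calls were lost with 15 min, or 0 and 15 min together, as the baseline, where the Cxcl1 difference was 1.99 and 2.37. The KO 0 min library, which enters all 3 values, held the cartilage markers at 398 CPM, and the part of this in the differences was not tested.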

How the results depend on the processing

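Of 668 values of 38 tested results under alternatives, 598 kept their direction and side of the threshold, 37 lost a call, 21 gained it and 12 changed sign. The 6 members lower in KO late stayed 6 in every alternative except all 4 times with time as a block, where Cx3cl1 was lost and 5 were left. Members higher late in WT went from 5 to 3 with 0 and 15 min as baseline and to 2 with 15 min as baseline. The 1 lower there became 0 with no filter, a 2-fold threshold or the 15 min baseline, and 0 to 1 when leaving out each library. In KO the count higher was 1 with 0 and 15 min as baseline and 0 to 1 when leaving out each library. The count lower was 0 with DESeq2, no filter, the 2-fold threshold or limma-voom, 2 with the 15 min baseline, and 0 to 2 when leaving out each library. Members with a larger WT response went from 3 to 1 with no filter or the 2-fold threshold (Cxcl1), to 1 with 0 and 15 min as baseline (Cx3cl1, not among the 3, all of which were lost), to 0 with the 15 min baseline, and 1 to 4 when leaving out each library. Members higher in KO late went from 2 to 1 with DESeq2 or total counts, to 0 with the 2-fold threshold, and 1 to 2 when leaving out each library. The count lower late against 15 min in WT was 0 to 1 when leaving out each library. With the 15 min baseline the WT values became -0.22 for Cxcl1, -0.15 for Cxcl5 and 0.0142 for Ackr3. That baseline gave -0.0237 for Cxcl10 and 1.35 for Cxcl16 in KO, and -0.25 for the Cxcl16 difference. Cxcl16 in KO was 0.38 with 0 and 15 min as baseline and -0.34 to 0.21 when leaving out each library, and Cxcl10 in KO was -0.005 to 0.89. For late against 15 min in WT, Cxcl5 was -0.43 to 0.0883 and Ackr3 -0.10 to 0.12 when leaving out each library, and Ackr3 was -0.0358 with total counts without the 3 largest genes. For the 2-fold threshold and no filter the construction of the alternative bears on the loss, and otherwise the cause was not tested. The ranges of calls over all genes were wide, for example 109 to 1097 higher late in WT and 14 to 179 larger in WT for the difference. Total counts moved the median of all genes by -0.21 late in WT, -0.21 in KO, -0.16 between genotypes and 0.13 late against 15 min. The share of calls that were higher then went from 76.1% to 52.1%, 71.7% to 26.9%, 33.2% to 14.6% and 79.0% to 89.0%. Without the 3 largest genes it was 58.2% late in WT and 51.6% late in KO. The labels give no replicate numbers to pair libraries by, and genotypes were paired by time alone. With time as a block the calls over all genes higher in KO went from 590 to 1025 (all 4 times) and 961 (TNF times). Depth limits Cxcl2, Cxcl10 and Cxcl16 in KO most, at 0 to 8 counts.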
